A study of Mus musculus with 12 samples.

Results

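The mRNA levels of 8 transcription factors that direct liver metabolism were followed in liver RNA-seq of 12 mice. The genes are Nr1h4 (protein FXR), Nr0b2 (SHP), Nr5a2 (LRH-1), Nr1i2 (PXR), Nr1i3 (CAR), Ppara (PPAR-alpha), Rxra (RXR-alpha) and Hnf4a (HNF4A). They were chosen by name for their role in the liver, with earlier results of these data known, from the 55359 genes of the count table. All 8 are among the 15274 genes that had enough counts to be tested. The animals were male C57BL/6NTac mice in 3 groups of 4. In the NM-FGF19 group a high-fat diet was combined with mRNA for NM-FGF19, a non-mitogenic form of the gut hormone FGF19, packed in lipid nanoparticles. The HFD control group had the high-fat diet with a control mRNA in such particles, and the lean group had normal chow with a control mRNA. Doses were weekly for 6 weeks, and the mice were killed 24 hours after the last one. The design text calls the mice 24 weeks old with 21 weeks of diet before treatment, whereas the growth protocol gives 28 weeks of feeding. The library names of the HFD control mice alone carry mOX40L, so that diet and a difference in control mRNA cannot be told apart between HFD control and lean livers. Each library is called by its group and its replicate number.

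Nuclear receptors are proteins that bind small molecules, or in some cases none, and switch genes on or off by binding DNA near them. FXR senses bile acids in the liver and induces SHP, which lacks a DNA-binding domain and represses other factors, LRH-1 and HNF4A among them, on the genes of bile acid synthesis. In the intestine FXR induces Fgf15, the mouse counterpart of human FGF19, which reaches the liver and represses bile acid synthesis by way of FGFR4 and its co-receptor beta-klotho. PXR and CAR sense drugs, steroids and bile acids and induce enzymes and transporters that clear them. PPAR-alpha senses fatty acids and induces their oxidation. FXR, PXR, CAR and PPAR-alpha act as dimers with RXR-alpha, and HNF4A is a factor on which hepatocyte identity depends. Several of these genes are known to follow the day-night cycle in mouse liver.

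The promoters of Nr1i3 and Nr0b2 are shown because both hold an E-box, CACGTG, the site to which the core clock proteins CLOCK and BMAL1 bind, and because levels in single livers are set beside the clock genes further on. The Nr0b2 promoter also holds TCAAGG, the core of sites that LRH-1 and related receptors bind. RefSeq windows of 250 bases before the gene start (build GRCm38.p6) were found for 8 of 8 genes, which have 11 such promoters in all. The Nr1i3 window is chr1:171213720-171213969 on the plus strand, and its E-box spans bases 244 to 239 before the start. The Nr0b2 window is chr4:133553126-133553375 on the plus strand, with the E-box at bases 195 to 190 and TCAAGG at bases 68 to 63 and 35 to 30. Capitals mark these motifs.
Nr1i3: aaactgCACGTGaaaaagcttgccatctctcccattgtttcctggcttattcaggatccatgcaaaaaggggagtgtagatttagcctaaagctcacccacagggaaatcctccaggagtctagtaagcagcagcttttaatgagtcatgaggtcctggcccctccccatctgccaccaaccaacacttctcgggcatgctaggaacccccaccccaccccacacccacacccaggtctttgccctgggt
Nr0b2: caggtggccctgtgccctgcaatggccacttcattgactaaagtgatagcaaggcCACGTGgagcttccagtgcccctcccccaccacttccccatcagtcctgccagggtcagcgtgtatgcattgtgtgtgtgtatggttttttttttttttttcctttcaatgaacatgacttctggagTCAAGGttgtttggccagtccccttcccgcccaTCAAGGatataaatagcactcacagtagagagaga
Searched on both strands, CACGTG was found in 2 of the 11 promoters of the 8 genes and in 6.021% of 32851 promoters of the genome. TCAAGG was found in 1 of the 11, that of Nr0b2, and in 12.46% of all. AGGTCA, the core site that many nuclear receptors bind, was found in 3 of the 11, those of Nr1h4, Nr5a2 and Rxra, and in 14.02% of all. Its inverted repeat with a spacer of 1 base, AGGTCANTGACCT, the type of site FXR binds, was found in 0 of the 11 and in 0.006088% of all. The D-box TTATGNAA, to which the clock output proteins DBP, TEF and HLF bind, was found in 0 of the 11 and in 3.068% of all. The motifs do not overlap each other in the printed windows.

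Counts per library ranged from 26809039 to 30014092 in NM-FGF19, from 32284438 to 33257260 in HFD control and from 23743415 to 30349156 in lean livers. Levels are given as CPM, counts scaled to a common library total after TMM adjustment. TMM factors ran from 0.779 in lean 3 to 1.17. All 11 hepatocyte marker genes were detected in each group, and their summed level was 116556 to 162904 CPM in NM-FGF19, 72363 to 101495 CPM in HFD control and 110957 to 147308 CPM in lean livers. The HFD control livers thus lay below all others in this sum. Markers of resident Kupffer cells summed to 92.0 to 378 CPM in NM-FGF19, 126 to 463 CPM in HFD control and 427 to 583 CPM in lean livers, and 5 of 7 were lower in HFD control than in lean. Markers of monocyte-derived macrophages summed to 48.6 to 106 CPM in NM-FGF19, 72.6 to 212 CPM in HFD control and 21.3 to 53.6 CPM in lean livers, and 6 of 7 were higher in HFD control than in lean and 4 of 7 in NM-FGF19 than in lean. Stellate cell and fibroblast markers summed to 296 to 873 CPM in NM-FGF19, 411 to 1037 CPM in HFD control and 189 to 243 CPM in lean livers, with 4 of 7 higher in HFD control and 2 of 7 in NM-FGF19 than in lean. Adipocyte markers summed to at most 0.264 CPM in NM-FGF19, 0.811 to 21.1 CPM in HFD control and at most 0.279 CPM in lean livers. Of 4 such markers 1 could be tested, which was lower in NM-FGF19 than in HFD control and higher in HFD control than in lean. Lep was at 0 in all livers. Plin1 was at 0 in HFD control and lean livers but not in the NM-FGF19 group. Adipoq was at 0 in NM-FGF19 livers but not in the other groups. The sum thus does not stand for the 4 markers as a set. At the threshold given below, 5.04% of all genes were higher and 3.29% lower in HFD control against lean. In NM-FGF19 against lean 1.01% were higher, and in NM-FGF19 against HFD control 0.151% were lower. The samples are bulk, so fewer cells of a type and less RNA per cell cannot be told apart. The part of the marker shifts in the results on the 8 genes and their targets was not tested.

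None of the 8 genes changed past the threshold in any of the 3 comparisons. NM-FGF19 against HFD control compares NM-FGF19 mRNA with the control mRNA, named mOX40L in these libraries, on the high-fat diet. HFD control against lean compares the diets together with any difference in control mRNA. NM-FGF19 against lean asks how far treated livers differ from those on chow. An effect of the control mRNA itself was not tested in any of them. By edgeR's quasi-likelihood test with Benjamini-Hochberg adjustment over all 15274 genes and a threshold of 0.05, 0 of 8 were higher and 0 of 8 lower in NM-FGF19 against HFD control, beside 0.282% of all genes called higher and 0.151% called lower (0.432% in all). The counts were 0 and 0 of 8 in HFD control against lean, beside 5.04% higher and 3.29% lower (8.33% in all). They were 0 and 0 in NM-FGF19 against lean, beside 1.01% higher and 0.484% lower (1.49% in all). With shares of that size, no call among 8 genes does not set them apart from other genes. At an unadjusted p under 0.05, the number was 1 of 8 in NM-FGF19 against HFD control (8.94% of all genes), 1 of 8 in HFD control against lean (24.6%) and 0 of 8 in NM-FGF19 against lean (16.7%). DESeq2 and limma voom also called 0 of 8 in each comparison. The median log2 change of the 8 was 0.04, −0.09 and −0.04 in the 3 comparisons in that order, beside medians of 0.00, −0.02 and −0.01 over all genes tested.

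**Figure D1:**
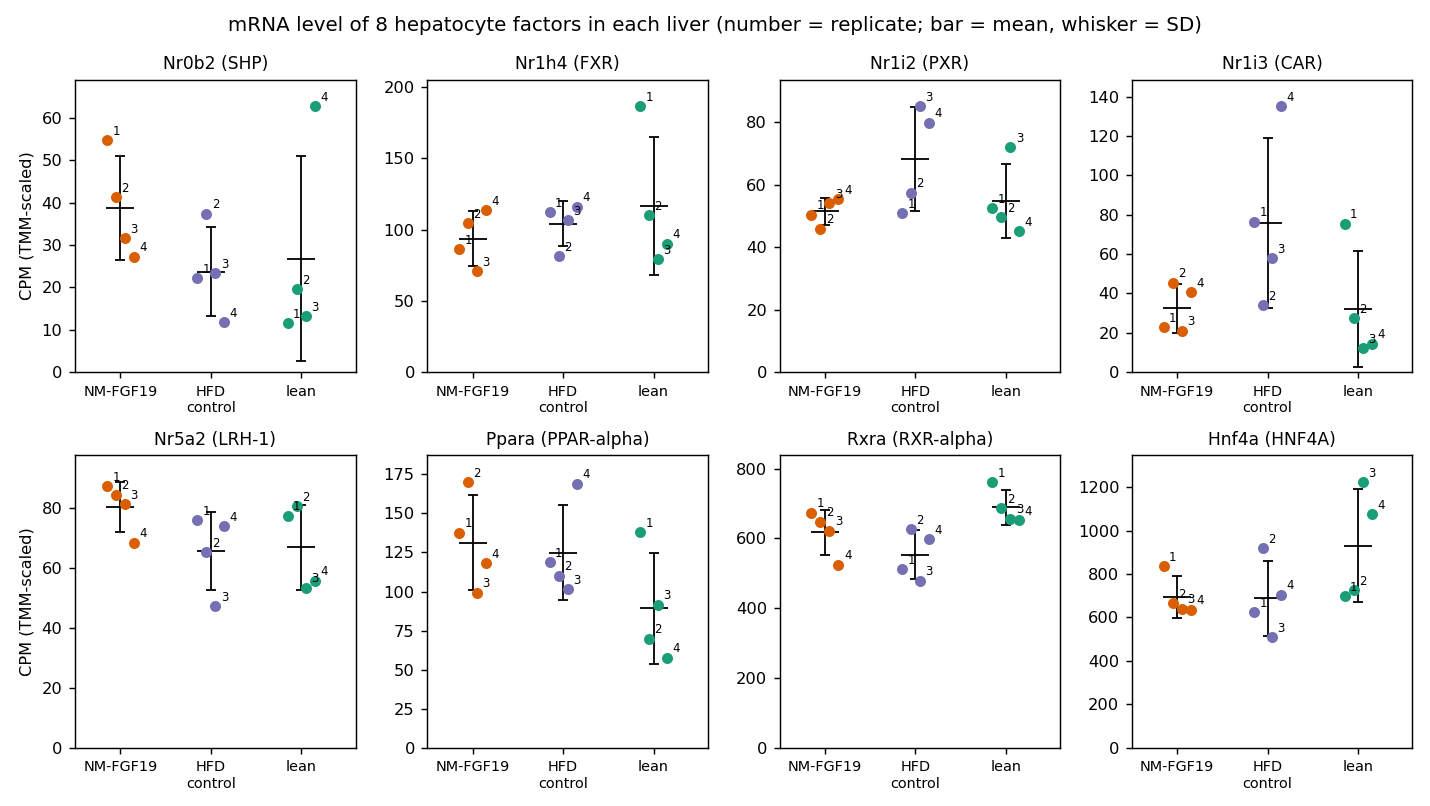
CPM of each of the 8 genes (y axis, from 0) in each liver, with the groups NM-FGF19, HFD control and lean from left to right; numbers are replicates, the horizontal bar is the mean and the whiskers are the SD of 4 mice. The groups overlap in nearly every panel, and Rxra in HFD control, 478 to 626 CPM, lies below its lean livers, 652 to 761 CPM.

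The bile acid sensor Nr1h4 had similar levels in the groups and 1 high liver. Nr1h4 stood at 86.0, 104, 70.7 and 114 CPM in NM-FGF19 livers 1 to 4, at 112, 81.5, 107 and 116 CPM in HFD control livers and at 186, 109.9, 79.1 and 90.2 CPM in lean livers. Lean 1 was the highest of the 12 livers, and the ranges of all groups overlapped. The means were 93.7 ± 19.1 CPM in NM-FGF19, 104 ± 15.6 CPM in HFD control and 116 ± 48.4 CPM in lean livers (SD, n = 4 each). The log2 change was −0.15 ± 0.24 (SE) for NM-FGF19 against HFD control, with a 95% interval of −0.68 to 0.37 and an edgeR adjusted p of 0.928. For HFD control against lean it was −0.16 ± 0.24 (interval −0.69 to 0.36, adjusted p = 0.734). It was −0.31 ± 0.24 for NM-FGF19 against lean (adjusted p = 0.561), and 0.01 without lean 1.

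Nr0b2, whose product SHP is the repressor that FXR induces, varied widely between mice of a group. Nr0b2 stood at 54.8, 41.2, 31.7 and 27.3 CPM in NM-FGF19 livers, at 22.2, 37.4, 23.4 and 11.8 CPM in HFD control livers and at 11.6, 19.6, 13.2 and 62.8 CPM in lean livers. The highest of the 12 was lean 4, and the other 3 lean livers lay below every NM-FGF19 liver. The means were 38.7 ± 12.2 CPM in NM-FGF19, 23.7 ± 10.5 CPM in HFD control and 26.8 ± 24.2 CPM in lean livers, and the SD in lean livers was 90.4% of the mean. The log2 change for NM-FGF19 against HFD control was 0.71 ± 0.52, with an interval of −0.43 to 1.85 that spans 0 (adjusted p = 0.774). For HFD control against lean it was −0.18 ± 0.52 (adjusted p = 0.872), and 0.70 without lean 4. For NM-FGF19 against lean it was 0.53 ± 0.52 (adjusted p = 0.667), and 1.40 without lean 4 (adjusted p = 0.114) and 1.09 with the clock score described further on in the model (adjusted p = 0.312).

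Nr5a2, for LRH-1, an activator of bile acid synthesis genes, varied little. Nr5a2 stood at 87.3, 84.5, 81.3 and 68.5 CPM in NM-FGF19 livers, at 76.1, 65.3, 47.3 and 74.0 CPM in HFD control livers and at 77.5, 80.7, 53.5 and 55.8 CPM in lean livers. Of the 4 NM-FGF19 livers, 3 lay above every other liver, and the groups still overlapped through NM-FGF19 4. The means were 80.4 ± 8.31 CPM in NM-FGF19, 65.7 ± 13.1 CPM in HFD control and 66.9 ± 14.2 CPM in lean livers. The log2 change was 0.29 ± 0.18 for NM-FGF19 against HFD control (interval −0.08 to 0.67, adjusted p = 0.697), −0.03 ± 0.18 for HFD control against lean (adjusted p = 0.944) and 0.27 ± 0.18 for NM-FGF19 against lean (adjusted p = 0.484).

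Nr1i2, for the drug and steroid sensor PXR, was the 1 gene of the 8 with an unadjusted p under 0.05 in NM-FGF19 against HFD control. Nr1i2 stood at 50.4, 45.9, 54.2 and 55.5 CPM in NM-FGF19 livers, at 50.98, 57.4, 85.2 and 79.9 CPM in HFD control livers and at 52.5, 49.7, 72.0 and 45.1 CPM in lean livers. HFD control 3 and 4 were the highest of the 12, while HFD control 1 lay within the NM-FGF19 range. The means were 51.5 ± 4.32 CPM in NM-FGF19, 68.4 ± 16.7 CPM in HFD control and 54.8 ± 11.8 CPM in lean livers. The log2 change for NM-FGF19 against HFD control was −0.41 ± 0.18, with an interval of −0.80 to −0.02, an unadjusted p of 0.0407 and an edgeR adjusted p of 0.534. For HFD control against lean it was 0.32 ± 0.18 (interval −0.07 to 0.71, adjusted p = 0.305). With library totals alone, a scaling that shifts the median of all genes to 0.29 in this comparison, Nr1i2 changed by 0.65 and passed (adjusted p = 0.0211). For NM-FGF19 against lean it was −0.09 ± 0.18 (adjusted p = 0.853).

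Nr1i3, for CAR, had the largest log2 changes of the 8 in the comparisons with HFD control livers, and the widest intervals. Nr1i3 stood at 22.9, 45.4, 20.9 and 40.5 CPM in NM-FGF19 livers, at 76.4, 34.1, 57.9 and 135 CPM in HFD control livers and at 75.4, 27.3, 12.03 and 14.4 CPM in lean livers. Of the HFD control livers, 3 lay above every NM-FGF19 liver and HFD control 2 lay within their range. The lean livers ran from the lowest of the 12, lean 3, to nearly the level of HFD control 1 in lean 1. The means were 32.4 ± 12.3 CPM in NM-FGF19, 75.9 ± 43.1 CPM in HFD control and 32.3 ± 29.5 CPM in lean livers. The log2 change was −1.23 ± 0.59 for NM-FGF19 against HFD control, with an interval of −2.53 to 0.07 and an edgeR adjusted p of 0.59. It was 1.23 ± 0.59 for HFD control against lean (interval −0.07 to 2.53, adjusted p = 0.23). Without lean 1 this became 2.10 and passed (adjusted p = 0.0313). NM-FGF19 against lean gave 0.00 ± 0.59 (interval −1.29 to 1.29), which allows 2-fold differences in either direction. The HFD control livers serve both of the first comparisons, so these opposite changes are not independent of each other.

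Ppara, for the fatty acid sensor PPAR-alpha, had close means on the high-fat diet with and without NM-FGF19. Ppara stood at 138, 170.1, 99.2 and 118 CPM in NM-FGF19 livers, at 119, 110.2, 101 and 169 CPM in HFD control livers and at 138, 69.9, 91.5 and 57.5 CPM in lean livers. All but lean 1 of the lean livers lay below every liver on the high-fat diet. The means were 131 ± 30.3 CPM in NM-FGF19, 125 ± 30.3 CPM in HFD control and 89.2 ± 35.3 CPM in lean livers. The log2 change was 0.07 ± 0.26 for NM-FGF19 against HFD control (interval −0.49 to 0.63, adjusted p = 0.978). It was 0.49 ± 0.26 for HFD control against lean (interval −0.08 to 1.05, adjusted p = 0.278) and 0.56 ± 0.26 for NM-FGF19 against lean (interval −0.01 to 1.12, adjusted p = 0.304).

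Rxra, for the shared partner RXR-alpha, was the 1 gene of the 8 with a comparison, HFD control against lean, in which the groups did not overlap. Rxra stood at 673, 648, 622 and 525 CPM in NM-FGF19 livers, at 511, 626, 478 and 597 CPM in HFD control livers and at 761, 687, 656 and 652 CPM in lean livers. Every HFD control liver lay below every lean liver, and NM-FGF19 livers lay across the gap. Overlap was judged in TMM-scaled CPM only. Groups that did not overlap were found for 1 of the 8 genes in HFD control against lean, beside 15.3% of all genes (6.89% lower). They were found for 0 of 8 in NM-FGF19 against HFD control (5.62% of all genes) and for 0 of 8 in NM-FGF19 against lean (10.3%). The means were 617 ± 64.8 CPM in NM-FGF19, 553 ± 69.8 CPM in HFD control and 689 ± 50.7 CPM in lean livers. The log2 change of HFD control against lean was −0.32 ± 0.14, with an interval of −0.62 to −0.02, an unadjusted p of 0.0403 and an edgeR adjusted p of 0.179. For NM-FGF19 against HFD control it was 0.16 ± 0.14 (adjusted p = 0.824) and for NM-FGF19 against lean −0.16 ± 0.14 (adjusted p = 0.611). Over 23 alternatives the change in HFD control against lean kept its sign. It ran from −0.38 to −0.01, with adjusted p from 0.077 to 0.954. The SD of Rxra was 10.5%, 12.6% and 7.35% of the mean in NM-FGF19, HFD control and lean livers.

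Hnf4a, for HNF4A, was highest in 2 of the lean livers. Hnf4a stood at 836, 665, 641 and 636 CPM in NM-FGF19 livers, at 623, 919, 509.7 and 704 CPM in HFD control livers and at 697, 727, 1224 and 1077 CPM in lean livers. Lean 3 and lean 4 were above every liver on the high-fat diet, and lean 1 and lean 2 were within its range. The means were 695 ± 95.2 CPM in NM-FGF19, 689 ± 173 CPM in HFD control and 931 ± 261 CPM in lean livers. The log2 change was 0.01 ± 0.22 for NM-FGF19 against HFD control (interval −0.47 to 0.49, adjusted p = 0.993). It was −0.43 ± 0.22 for HFD control against lean (interval −0.91 to 0.04, adjusted p = 0.252) and −0.42 ± 0.22 for NM-FGF19 against lean (interval −0.90 to 0.06, adjusted p = 0.365). The means of Hnf4a in NM-FGF19 and HFD control livers were nearly equal. The summed hepatocyte markers of these groups did not overlap, while 0 of the 11 markers were called and their median log2 change was 0.12.

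**Figure D2:**
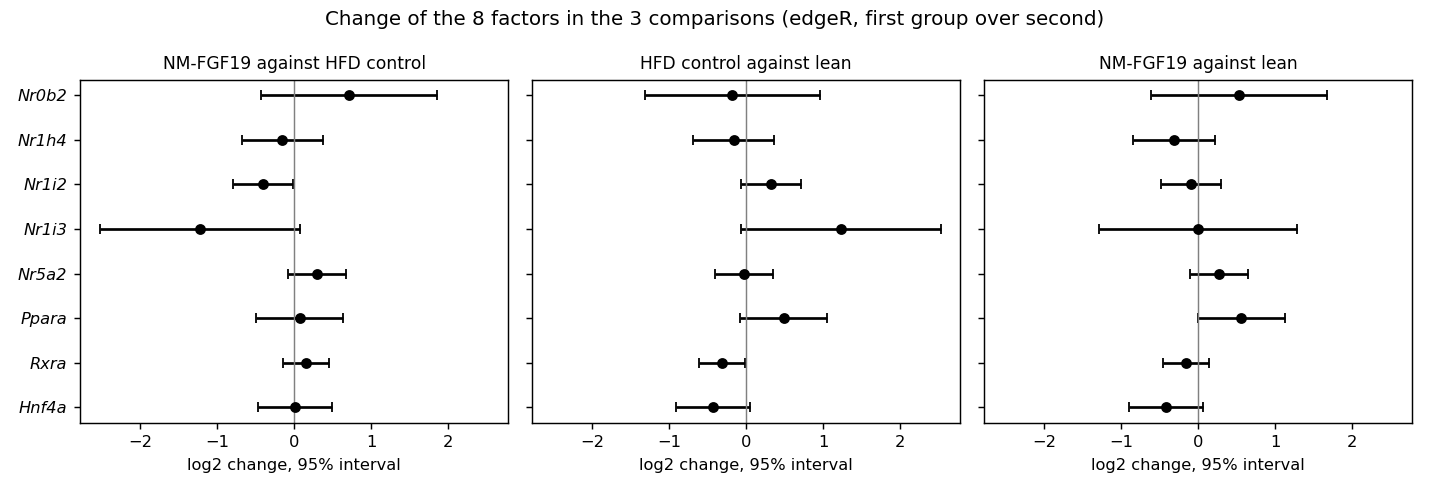
Log2 change (x axis, first group over second) of each of the 8 genes in the 3 comparisons, by edgeR; points are estimates and whiskers 95% intervals. Intervals are widest for Nr1i3 and Nr0b2, and those of Nr1i2 in NM-FGF19 against HFD control (−0.80 to −0.02) and of Rxra in HFD control against lean (−0.62 to −0.02) just miss 0.

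Nr1i3 and Nr1h4 differed between mice of the same group together with the clock genes. A clock score was computed for each liver as the mean centred log2 CPM of 8 genes (Dbp, Tef, Per1, Per2, Per3, Ciart, Nr1d1 and Nr1d2) minus that of 5 genes in the opposite phase (Arntl, which encodes BMAL1, Npas2, Clock, Nfil3 and Cry1). The score was −1.05, 2.32, −1.09 and 1.27 in NM-FGF19 livers 1 to 4, 0.754, −1.42, 1.76 and 2.00 in HFD control livers and 2.47, −1.23, −2.85 and −2.93 in lean livers. Each group held livers at either end of the scale, with 3 of 4 low in lean and 3 of 4 high in HFD control. Dbp, a clock output gene, ranged from 35.5 to 134 CPM in NM-FGF19, from 23.1 to 92.1 CPM in HFD control and from 4.79 CPM in lean 3 to 135 CPM in lean 1. Arntl ran the other way, from 1.85 to 16.2 CPM in NM-FGF19, from 1.87 to 16.8 CPM in HFD control and from 0.958 CPM in lean 1 to 35.3 CPM in lean 4. The labels give no time of day at which mice were killed.

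In an edgeR fit with group and score as terms, a test chosen after seeing the data, Nr1i3 rose by 0.43 ± 0.05 log2 units per unit of the score (adjusted p = 0.00119). Nr1h4 rose by 0.18 ± 0.03 per unit (adjusted p = 0.00702). Thus 2 of the 8 genes passed, both higher, beside 0.583% of 15261 genes called higher and 1.11% called either way, with the 13 genes of the score left out. In each group the liver with the highest score also had the highest Nr1i3 level: HFD control 4 at 135 CPM, lean 1 at 75.4 CPM and NM-FGF19 2 at 45.4 CPM. Ppara had a slope of 0.14 ± 0.04 and did not pass (adjusted p = 0.171). Hnf4a had a slope of −0.12 ± 0.04 (adjusted p = 0.202) and Nr0b2 one of −0.26 ± 0.10 (adjusted p = 0.299), and neither passed. The slopes of Nr5a2, Nr1i2 and Rxra were 0.04, 0.01 and 0.00 (adjusted p = 0.744, 0.942 and 0.986). The E-box was found for Nr1i3 and for Nr0b2, whose slope did not pass, and not for Nr1h4. A link between the E-box and the slopes was not tested.

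Both slopes were called in 11 of 12 fits that left out 1 library. Without lean 1 the slopes were 0.41 for Nr1i3 (adjusted p = 0.0547) and 0.15 for Nr1h4 (adjusted p = 0.188), and 0 of 8 passed, beside 0.154% of all genes. Without lean 3 and HFD control 3 together, 3 of 8 passed, with Ppara the third (0.19, adjusted p = 0.0338). Among the genes of the clock outside the score, 2 of 5 rose with it, Hlf (0.22 ± 0.04, adjusted p = 0.0112), for a D-box binding factor, and Cry2 (0.14 ± 0.03, adjusted p = 0.0477), for a repressor of the core clock. Hlf was called in 11 of 12 leave-one-out fits and Cry2 in 2, and neither without lean 1 (adjusted p = 0.224 and 0.234). Among 30 other nuclear receptors 1 rose, Nr2f2 (0.19 ± 0.04, adjusted p = 0.0407), and 0 fell. Nr2f2 was called in 4 of 12 leave-one-out fits, and not without lean 1 (adjusted p = 0.249).

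**Figure D3:**
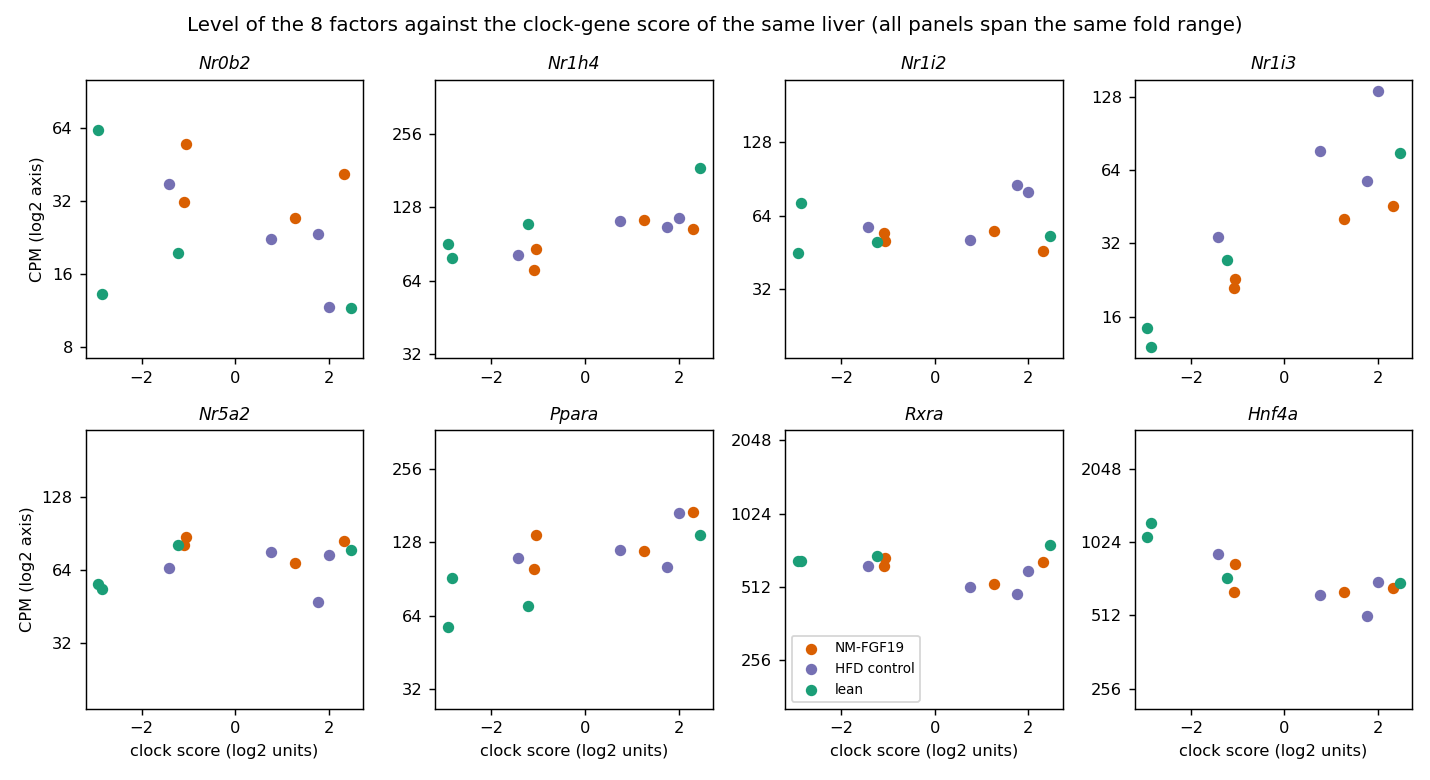
CPM of each of the 8 genes (y axis, log2, each panel spanning the same fold range) against the clock score of the same liver (x axis, log2 units); points are livers, coloured by group. Nr1i3 is higher at higher scores, with 135 CPM in HFD control 4 (score 2.00) and 12.03 CPM in lean 3 (score −2.85), while Rxra and Nr5a2 stay nearly level.

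With the score in the model, the group differences of Nr1i3 had smaller errors and still missed the threshold. The log2 change of NM-FGF19 against HFD control was −1.002 ± 0.21 (adjusted p = 0.0582) with the score, against −1.23 ± 0.59 (adjusted p = 0.59) without it. HFD control against lean gave 0.68 ± 0.22 (adjusted p = 0.113). For Nr1h4 the score brought HFD control against lean to −0.44 ± 0.13 (adjusted p = 0.0747) and NM-FGF19 against lean to −0.52 ± 0.12 (adjusted p = 0.0685), by edgeR. The score uses the same libraries as the levels, and whether time of killing lies behind it was not tested.

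While the 8 genes passed in no comparison, several genes listed as their targets did. The lists were drawn from textbook knowledge with earlier results of these data known, and they overlap in part, so their counts and medians are descriptions. With NM-FGF19, 2 enzymes of bile acid synthesis had low levels in all 4 livers. Cyp8b1, for the enzyme that sets the share of cholic acid, stood at 90.8, 82.3, 151 and 123 CPM in NM-FGF19 livers, against 277, 432, 372 and 389 CPM in HFD control livers and 472, 345, 305 and 405 CPM in lean livers. All NM-FGF19 livers lay below all others. The log2 change was −1.72 ± 0.22 against HFD control (adjusted p = 0.00699) and −1.77 ± 0.22 against lean (adjusted p = 0.00324). Cyp7a1, for the rate-limiting enzyme of bile acid synthesis, stood at 5.15, 20.2, 3.28 and 5.70 CPM in NM-FGF19 livers, against 246, 241, 73.5 and 386 CPM in HFD control livers and 431, 64.1, 155 and 33.9 CPM in lean livers. Here too every NM-FGF19 liver lay below all others. NM-FGF19 livers did not overlap HFD control livers for 5.62% of all genes, and lean livers for 10.3%, in either direction. The share of genes below both groups was not counted. The log2 change of Cyp7a1 was −4.79 ± 0.95 against HFD control, which missed the threshold (adjusted p = 0.0672). Against lean it was −4.32 ± 0.93, which passed (adjusted p = 0.0489). Against HFD control it passed in 7 of 23 alternatives, among them DESeq2 (adjusted p = 1.53e-05), voom (0.031), the clock score in the model (0.0241) and the fits without lean 1 (0.0381) or lean 4 (0.0455), and its adjusted p reached 0.238 in the others. The call against lean was lost in 9 of 12 leave-one-out fits (adjusted p up to 0.133).

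Of 13 genes of bile acid synthesis and uptake tested, 0 rose and 1 fell in NM-FGF19 against HFD control (beside 0.151% of all genes lower), with a median log2 change of −0.02. The 1 was 2 with voom, library totals alone, the stricter filter, no robust option, the clock score, or without lean 1 or lean 4, and 3 with DESeq2. In NM-FGF19 against lean 0 rose and 3 fell (beside 0.484% of all genes lower), with a median of −0.36. The third was Cyp27a1, for the enzyme that opens the alternative pathway, at 265 ± 20.9 CPM in NM-FGF19 livers, 419 ± 61.0 CPM in HFD control livers and 592 ± 66.1 CPM in lean livers. Its log2 change was −1.16 ± 0.14 for NM-FGF19 against lean (adjusted p = 0.00324). In HFD control against lean it changed by −0.50 ± 0.14 (adjusted p = 0.0475), a call lost in 11 of 12 fits without 1 library, and Slc10a1, for a bile acid uptake carrier, by −0.84 ± 0.24 (adjusted p = 0.05 after rounding), lost in 10 of 12. Of 12 LRH-1 targets, Cyp8b1 was the 1 called in NM-FGF19 against HFD control and in NM-FGF19 against lean. In HFD control against lean 2 rose (beside 5.04% of all genes higher), the sterol exporter genes Abcg5 (1.96 ± 0.34) and Abcg8 (1.81 ± 0.32), with adjusted p = 0.00848 each. In that comparison 2 fell (beside 3.29% of all genes lower), and 0 fell without HFD control 3.

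By edgeR with all 12 libraries and group as the only term, FXR targets other than Nr0b2 did not pass in either comparison with NM-FGF19. Of 11 tested, 0 rose and 0 fell in NM-FGF19 against HFD control (median −0.11, 0.432% of all genes called). In NM-FGF19 against lean 0 rose and 0 fell as well (median −0.45, 1.49% of all genes called). DESeq2 called 1 higher and 1 lower in the first of these and 4 lower in the second. With the clock score in the edgeR model, 1 was lower in the first. Without HFD control 2, without HFD control 3, or without lean 3 and HFD control 3 together, 1 was lower in the second. Abcb11, for the bile salt export pump, stood at 509.9, 411, 595 and 263 CPM in NM-FGF19 livers, at 348, 675, 224 and 352 CPM in HFD control livers and at 515, 607, 531 and 815 CPM in lean livers, and passed in no comparison with all 12 libraries. Between HFD control and lean livers 2 of 11 fell and 0 rose (median −0.48), beside 3.29% of all genes lower. The 2 was 1 without lean 3 and HFD control 3, 3 with DESeq2 and 4 without HFD control 2. Kng1, for kininogen, averaged 1391 ± 117 CPM in HFD control and 3191 ± 551 CPM in lean livers, a log2 change of −1.20 ± 0.16 (adjusted p = 0.00275). Fetub, for the plasma protein fetuin-B, averaged 421 ± 123 CPM in HFD control and 761 ± 42.9 CPM in lean livers (−0.85 ± 0.18, adjusted p = 0.0162). Both are listed as FXR targets from work in human hepatocytes. They are secreted by hepatocytes, whose summed markers were also lower in HFD control, with 1 of 11 markers called lower. The part of that shift was not tested. The hormone's receptor genes Fgfr4 and Klb passed in no comparison with all 12 libraries. Without HFD control 2, Fgfr4 passed in HFD control against lean (−0.82, adjusted p = 0.0229), as did Abcb11 (−1.003, adjusted p = 0.041). Fgfr4 was 30.9 to 48.4 CPM in NM-FGF19 and 52.2 to 73.7 CPM in lean livers, which did not overlap (−0.49 ± 0.23, adjusted p = 0.295). These groups did not overlap for 10.3% of all genes, in either direction. Fgf15 had 2 counts in NM-FGF19 2 and 0 counts in the other livers.

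Many PPAR-alpha targets rose in HFD control against lean, the comparison in which Ppara itself changed by 0.49 ± 0.26 and did not pass. Of 32 tested, 19 rose (59.4%) and 0 fell, beside 5.04% of all genes called higher, and the median log2 change was 0.79. Cd36, for a fatty acid carrier, averaged 193 ± 101 CPM in HFD control and 29.8 ± 4.37 CPM in lean livers (2.70 ± 0.34, adjusted p = 0.00267). Aldh3a2, for an aldehyde dehydrogenase of fatty aldehydes, averaged 680.3 ± 264 CPM in HFD control and 96.5 ± 40.7 CPM in lean livers (2.82 ± 0.38, adjusted p = 0.00285). Both calls held in all 12 fits without 1 library. The count of 19 fell to 8 without HFD control 3, 11 without HFD control 4, and 8, 9 and 10 without lean 2, lean 3 and lean 4. It was 6 with the replicate number as a block, 6 without lean 3 and HFD control 3 together, 9 with the clock score in the model and 25 with library totals alone. On the clock score, 4 of 32 rose and 0 fell, beside 0.583% of all genes higher. They were Cyp4a10, Acot1, Acadl and Decr2, called in 4, 3, 1 and 1 of 12 leave-one-out fits, and none was called without lean 1 (adjusted p = 0.136 to 0.324).

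In NM-FGF19 against HFD control 0 of the 32 PPAR-alpha targets rose and 1 fell (5 with DESeq2, 4 with the clock score), and the median was −0.46. Of all genes 0.151% fell by edgeR, 23 genes, while DESeq2 called 114 lower. The 1 target called lower by edgeR was Acaa1b, for a peroxisomal thiolase, at 240.4 ± 91.7 CPM in NM-FGF19 and 1056 ± 408 CPM in HFD control livers (−2.14 ± 0.36, adjusted p = 0.0221). The call was lost in 6 of 12 leave-one-out fits (adjusted p up to 0.0802), and the near-identical copy Acaa1a makes its counts uncertain. In NM-FGF19 against lean 3 of 32 rose and 0 fell (median 0.57), beside 1.01% of all genes called higher. Vnn1, for the pantetheinase vanin-1, averaged 54.6 ± 21.1 CPM in NM-FGF19 and 4.62 ± 2.67 CPM in lean livers (3.55 ± 0.58, adjusted p = 0.0187). Cyp4a31, of a family of fatty acid hydroxylases with near-identical copies, averaged 15.02 ± 9.39 CPM in NM-FGF19 and 1.32 ± 0.545 CPM in lean livers (3.49 ± 0.59, adjusted p = 0.0187). Without NM-FGF19 4, or without lean 2, lean 3 or lean 4, the count of 3 was 1. It was 0 with the replicate block and 9 with DESeq2.

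Of 32 CAR and PXR targets tested, 4 rose (12.5%, beside 5.04% of all genes higher) and 0 fell in HFD control against lean, with a median of 0.55. Abcc3, for an export pump of conjugates, averaged 289.7 ± 93.4 CPM in HFD control and 61.7 ± 25.4 CPM in lean livers (2.23 ± 0.37, adjusted p = 0.00772). Cyp3a11, for the main drug-metabolising P450 of mouse liver, averaged 1265 ± 1024 CPM in HFD control and 89.4 ± 64.3 CPM in lean livers (3.82 ± 0.74, adjusted p = 0.0132). Its family has close copies, and its call was lost with the clock score in the model and without lean 3 and HFD control 3 together (adjusted p up to 0.0914). The count of 4 was 7 without lean 1, the liver that also decided the call of Nr1i3. It was 2 without HFD control 3, HFD control 4, lean 2 or lean 4, and with voom or the replicate block. It was 1 with the clock score or without lean 3 and HFD control 3 together, and 9 with DESeq2 or library totals alone. In NM-FGF19 against HFD control 0 rose and 1 fell (6 with DESeq2, 0 with voom), beside 0.151% of all genes lower by edgeR, with a median of −0.52. The 1 was Gsta2, for a glutathione transferase with a near-identical copy, at 1.13 ± 0.386 CPM in NM-FGF19 and 17.0 ± 9.77 CPM in HFD control livers (−3.91 ± 0.65, adjusted p = 0.0266), lost in 6 of 12 fits without 1 library. In NM-FGF19 against lean 0 of 32 passed by edgeR, beside 1.49% of all genes, and 4 were higher and 4 lower by DESeq2.

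Of 28 HNF4A targets, 1 rose and 0 fell in NM-FGF19 against HFD control (beside 0.282% of all genes higher), with a median of 0.11. The 1 was Apom, for apolipoprotein M, at 272 to 305 CPM in NM-FGF19, 85.0 to 161 CPM in HFD control and 269 to 320.4 CPM in lean livers. Its levels in NM-FGF19 and lean livers overlapped, and all HFD control livers lay below both. Apom changed by 1.27 ± 0.17 in NM-FGF19 against HFD control (adjusted p = 0.00745) and by −1.34 ± 0.17 in HFD control against lean (adjusted p = 0.00267), and both calls held in all 12 fits without 1 library. Both comparisons use the same HFD control livers, so these opposite changes of Apom are not independent of each other. Between HFD control and lean livers 0 of 28 rose and 3 fell (10.7%, beside 3.29% of all genes lower), with a median of −0.27. The 3 was 1 with the replicate block, with the clock score, without HFD control 1 or without lean 3 and HFD control 3 together, 5 without HFD control 2 and 7 with DESeq2. Ambp, for a plasma protein precursor that is also a hepatocyte marker, changed by −0.90 ± 0.20 (adjusted p = 0.0185), a call lost in 5 alternatives: without HFD control 1, without HFD control 3, without lean 3 and HFD control 3 together, with the replicate block and with the clock score (adjusted p up to 0.0657). In NM-FGF19 against lean 0 of 28 passed, beside 1.49% of all genes.

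**Figure D4:**
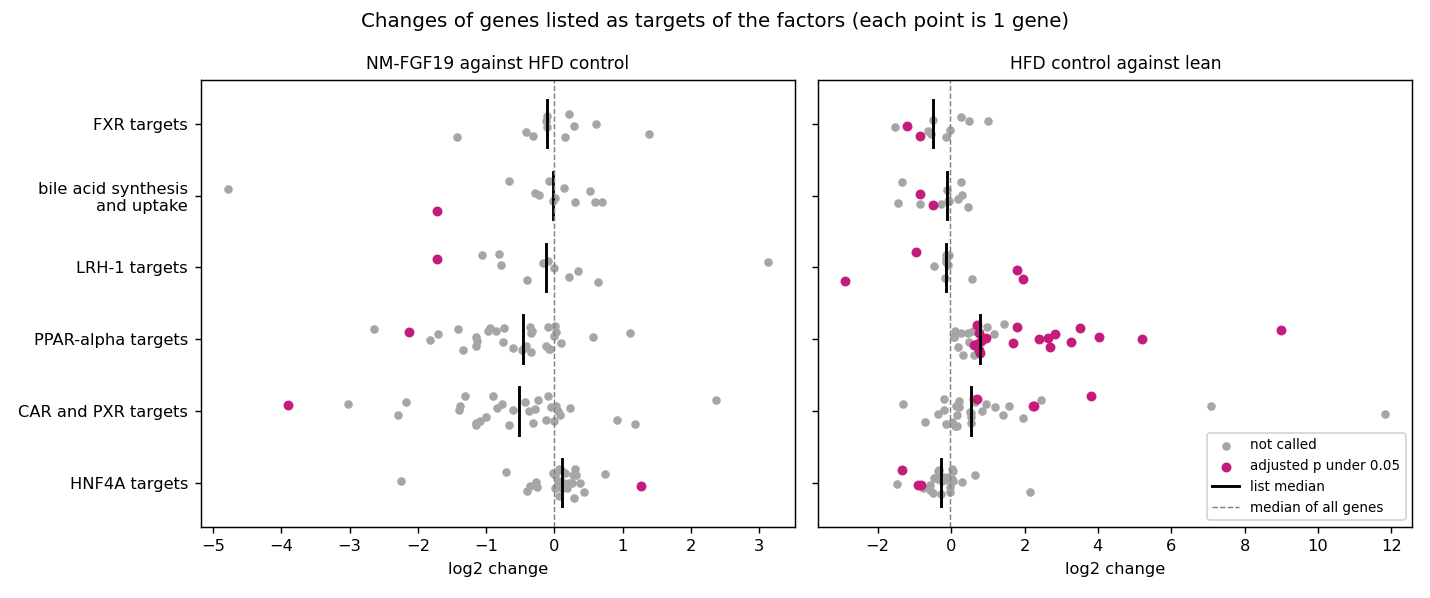
Log2 change (x axis) of each tested gene in 6 target lists of the 8 factors, for NM-FGF19 against HFD control (left) and HFD control against lean (right); coloured points passed an adjusted p of 0.05, black bars are list medians and the dashed line is the median of all genes. PPAR-alpha targets lie right of 0 on the right panel, with 19 of 32 called, and Cyp8b1 (−1.72) is called in 2 lists on the left.

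Calls among the other nuclear receptors and the partners of the 8 factors are set beside the shares of all genes. Of 32 other nuclear receptors tested, 0 passed in NM-FGF19 against HFD control (0.432% of all genes) and 0 in NM-FGF19 against lean (1.49%). In HFD control against lean 2 rose and 1 fell (9.38%, beside 8.33% of all genes). The 2 was 0 without HFD control 1, HFD control 3 or HFD control 4, and 5 with DESeq2 or library totals alone. Nr2c1, for the orphan receptor TR2, averaged 13.1 ± 1.01 CPM in HFD control and 19.4 ± 1.97 CPM in lean livers (−0.57 ± 0.11, adjusted p = 0.0119), and its call was lost with library totals alone. Esrrg, for an estrogen-related receptor, averaged 2.71 ± 0.908 CPM in HFD control and 0.696 ± 0.458 CPM in lean livers (1.94 ± 0.50, adjusted p = 0.0326). The call of Esrrg was lost in 5 of 12 fits without 1 library. Of 29 coactivators and corepressors, 0 passed in each of the 3 comparisons, with medians of −0.03, −0.09 and −0.12. The shares of all genes called were 0.432%, 8.33% and 1.49%.

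Of 27 hepatocyte transcription factors that are not nuclear receptors, 1 rose and 0 fell in NM-FGF19 against HFD control (beside 0.282% of all genes higher), and 0 rose and 3 fell in HFD control against lean (beside 3.29% lower). The 1 was 0 in 9 of 12 leave-one-out fits. The 3 was 1 with library totals alone, the replicate block, the clock score, without NM-FGF19 2, HFD control 3, lean 2 or lean 4, and without lean 3 and HFD control 3 together. Srebf2, for the activator of cholesterol synthesis SREBP-2, was called in both. Srebf2 averaged 72.9 ± 18.9 CPM in NM-FGF19, 38.1 ± 3.30 CPM in HFD control and 79.7 ± 7.69 CPM in lean livers. Its change of −1.06 ± 0.17 in HFD control against lean (adjusted p = 0.00566) held in all 12 fits without 1 library. Its change of 0.93 ± 0.17 in NM-FGF19 against HFD control (adjusted p = 0.0312) was lost in 9 of 12 (adjusted p up to 0.131). The same HFD control livers serve both comparisons, so these opposite changes of Srebf2 are not independent. Xbp1, for a factor of the unfolded protein response, averaged 193 ± 50.2 CPM in HFD control and 424 ± 187 CPM in lean livers (−1.14 ± 0.30, adjusted p = 0.035), lost in 7 of 12. In NM-FGF19 against lean 0 of 27 passed, beside 1.49% of all genes.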

How the data were processed

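Liver RNA of 12 mice was sequenced. Per the labels' protocols, 100 ng of RNA entered a stranded Illumina mRNA kit and read pairs of 101 nt were made on a NextSeq2000. The authors deposited raw read counts per gene, made with Trimmomatic, STAR and featureCounts on mm39, per the submitters' processing notes. Versions, annotation and strand mode were not given in the sources used here. Genes that overlap on opposite strands may therefore share reads, and no coordinates are printed for counts. All 12 columns were mapped by library name, with 0 left over. Symbols matched 52083 of 55359 gene IDs, and the other 3276 held 0.515% of counts. Mice killed as an HFD baseline are named in the design and were not analysed here.

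The 8 genes, 10 gene lists and 11 marker lists were chosen with earlier results of these data known. Genes passing filterByExpr (minimum count 10) entered edgeR 4.0.16 (R 4.3.3). Its quasi-likelihood F test was run robust, TMM-scaled and 2-sided, with all 12 libraries in 1 fit and group as the only term, and Benjamini-Hochberg adjustment per comparison at 0.05. The SE is the one implied by F. Named genes are the 8, a fixed set (Cyp7a1, Cyp8b1, Abcb11, Fgfr4, Klb, Fgf15), the clock genes Dbp and Arntl, and per list and comparison the 2 called genes with the smallest adjusted p in the main direction and 1 in the other. The genes named for their clock slope outside this rule (Hlf, Cry2, Nr2f2, Cyp4a10, Acot1, Acadl and Decr2) were chosen after their values were seen. Some genes that the rule names are not reported here. Levels in CPM are not divided by length and are not compared between genes.

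Replicates are separate libraries of mice per the labels. Their log2 CPM (prior count 2) correlated at 0.946 to 0.980, and their counts differed by a chi-square of at least 40.8 per degree of freedom, so none was a repeat of another. A floor of 3 counts covers counting error only. Alternatives were DESeq2 1.42.0, limma voom (3.58.1), RLE size factors, library totals alone, no filter, a filter of 1 CPM in 4 samples, no robust option, 2 groups only, the replicate number as a block, each library left out, lean 3 and HFD control 3 left out together, and the clock score as a covariate. Simulated counts with known changes were used to test the edgeR group test and the fit of the clock score slope.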

Additional observations from a re-analysis of the deposited data

Results flagged for a closer look

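Among 42 sets of 4 livers (the 8 genes, 5 other named genes and the clock score, in each group), 4 held a liver far from the other 3 by Dixon's ratio, where chance gives about 1 in 20. Nr0b2 in lean 4 stood at 62.8 CPM, against 11.6 to 19.6 CPM in the other lean livers. Hnf4a in NM-FGF19 1 stood at 836 CPM, against 636 to 665 CPM in the other NM-FGF19 livers. Cyp7a1 in NM-FGF19 2 stood at 20.2 CPM, against 3.28 to 5.70 CPM in the others of its group. Fgfr4 in lean 3, the library with the lowest TMM factor, stood at 73.7 CPM, against 52.2 to 55.4 CPM in the other lean livers.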

How the results depend on the processing

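Over the alternatives, 552 values of the 8 genes were recomputed. Direction and side of the threshold were kept in 516, the sign turned in 34, 2 newly passed (named in the report) and 0 lost a call.

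For all genes, NM-FGF19 against HFD control gave 43 higher and 23 lower, HFD control against lean 770 and 502, and NM-FGF19 against lean 154 and 74. With DESeq2 these were 175 and 114, 1299 and 921, and 601 and 368. With the replicate number as a block they were 12 and 6, 384 and 209, and 25 and 15. Numbers did not pair the mice. Deviations of log2 CPM from the group mean correlated at −0.363 to 0.0712 between libraries of the same number. By these deviations, 0 of 12 libraries correlated best with their own number. With only the 2 groups compared, the first comparison gave 23 and 15, the second 274 lower and the third 74 and 43. With library totals alone, they gave 26 higher, 2381 higher and 228 lower with 1 of the 8 genes higher, and 346 higher. Without lean 3 and HFD control 3, the first gave 24 and 14 and the second 323 and 157. With the clock score as a covariate they gave 36 lower, 364 and 228, and 68 and 38, and voom gave 65 and 47 in the third. Leaving out 1 library gave 9 to 62 higher and 8 to 34 lower, 331 to 926 and 196 to 602, and 43 to 181 and 24 to 92. Of the 8 genes, 0 to 1 were then higher in HFD control against lean and 0 to 2 rose with the clock score.

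Sign changes were in values that did not pass. With library totals alone, which moved the median of all genes to −0.13, 0.29 and 0.17, they were in NM-FGF19 against HFD control Ppara (−0.056), Hnf4a (−0.11) and Fgfr4 (−0.057). In HFD control against lean they were Nr0b2 (0.11), Nr1h4 (0.13), Nr5a2 (0.27) and Cyp8b1 (0.23), and in NM-FGF19 against lean Nr1i2 (0.11), Rxra (0.017) and Klb (0.18). Without lean 3 and HFD control 3 they were Ppara (−0.021), Hnf4a (−0.11), Abcb11 (−0.051) and Fgfr4 (−0.083) in the first, Nr5a2 (0.032) in the second, and Nr1i2 (0.086), Nr1i3 (−0.25) and Klb (0.11) in the third. With the clock score they were Hnf4a (−0.019), Nr0b2 (0.39) and Nr1i3 (−0.33). With voom they were Nr0b2 (0.077) and Klb (0.022), and Klb turned to 0.0049 with no filter and 0.0042 with the stricter one. With 1 library left out, in the first comparison Ppara ran from −0.083 to 0.25, Hnf4a from −0.11 to 0.18, Abcb11 from −0.044 to 0.53 and Fgfr4 from −0.077 to 0.33. In the second Nr0b2 ran from −0.49 to 0.70, Nr1h4 from −0.28 to 0.17, Nr5a2 from −0.10 to 0.10 and Cyp8b1 from −0.14 to 0.081. In the third Nr1h4 ran from −0.44 to 0.015, Nr1i2 from −0.17 to 0.085, Nr1i3 from −0.25 to 0.86 and Klb from −0.13 to 0.17. Clock score slopes ran from −0.011 to 0.046 for Nr1i2 and from −0.038 to 0.022 for Rxra. The cause of each was not tested. With 4 mice per group, the wide intervals of Nr0b2 and Nr1i3 limit what these comparisons can show.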
